A study of Mus musculus with 12 samples.

Results

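The transcripts described here are 10 genes of the hypoxia response: the transcription factor subunits Hif1a and Epas1, the oxygen-sensing enzymes Egln1 and Egln3, and the target genes Vegfa, Adm, Ndrg1, Bhlhe40, Ankrd37 and Kdm3a. They were taken by symbol from a table of read counts that held 23366 gene symbols. For each symbol the transcript with the highest total was used. All 10 were found, and all 10 were among the 13882 genes that passed the filter on low counts. The study compared mouse embryonic fibroblasts, connective tissue cells grown from embryos, of 4 groups with 2 RNA libraries each. The first pair of groups was a knockout of Carm1 after 18 h in glucose-free medium (KO-GS) and the same knockout in rich medium (KO). The other pair was wild-type cells after 18 h in glucose-free medium (WT-GS) and wild-type cells in rich medium (WT). CARM1 is an arginine methyltransferase of histone H3 and a coactivator of transcription. All cells were C57BL/6 at passages 3 to 5, and all media held 10% serum, dialyzed in the glucose-free medium only. Time in culture and serum dialysis therefore cannot be told apart from the loss of glucose. The labels do not say whether replicates were separate cultures or how many embryos or clones a genotype stands for, so the p-values cover the spread among these libraries only, which may be technical.

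Cells sense oxygen through the prolyl hydroxylases encoded by the Egln genes. With oxygen present these enzymes mark the alpha subunits HIF-1 alpha (Hif1a) and HIF-2 alpha (Epas1) for ubiquitination by the von Hippel-Lindau protein and for degradation. Without oxygen the alpha subunits persist, pair with ARNT and bind DNA at hypoxia response elements, whose core is ACGTG or GCGTG. Alpha subunit activity is set largely at the level of the protein, which was not measured here. Among the targets, Vegfa and Adm encode secreted signals for blood vessels, and the induction of Egln1 and Egln3 is a feedback on the pathway. Several targets, Vegfa and Ndrg1 among them, also respond to other stresses such as nutrient loss.

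The windows before the start sites of 5 members are shown because these genes carry the contrasts described below: Ankrd37, Egln1 and Kdm3a were lower after starvation in knockout cells, and Egln3 and Adm were at or near 0 counts in them. Each is the 250 bases before a RefSeq start site (GRCm38.p6, not the build of the counts), read 5′ to 3′ along the gene. Capitals mark ACGTG or GCGTG on either strand, which on the other strand read CACGT and CACGC.
Ankrd37, chr8:45999851-46000100, minus strand: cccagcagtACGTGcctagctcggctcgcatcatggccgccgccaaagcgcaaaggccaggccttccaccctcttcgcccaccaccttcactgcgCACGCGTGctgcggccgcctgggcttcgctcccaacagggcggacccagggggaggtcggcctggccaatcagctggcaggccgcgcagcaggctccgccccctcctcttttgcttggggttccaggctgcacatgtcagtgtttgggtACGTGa
Egln1, chr8:124949255-124949504, minus strand: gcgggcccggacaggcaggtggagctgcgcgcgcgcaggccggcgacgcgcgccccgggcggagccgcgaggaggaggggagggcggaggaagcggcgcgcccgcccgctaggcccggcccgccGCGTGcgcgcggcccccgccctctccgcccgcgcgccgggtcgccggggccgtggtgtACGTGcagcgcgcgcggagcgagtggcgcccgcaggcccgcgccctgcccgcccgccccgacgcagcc
Kdm3a, chr6:71632918-71633167, minus strand: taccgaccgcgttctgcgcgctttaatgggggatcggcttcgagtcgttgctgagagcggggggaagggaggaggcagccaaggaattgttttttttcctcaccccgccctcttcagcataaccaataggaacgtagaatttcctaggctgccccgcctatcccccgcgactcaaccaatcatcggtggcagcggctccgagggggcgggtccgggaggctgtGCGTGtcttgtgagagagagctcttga
Egln3, chr12:54203875-54204124, minus strand: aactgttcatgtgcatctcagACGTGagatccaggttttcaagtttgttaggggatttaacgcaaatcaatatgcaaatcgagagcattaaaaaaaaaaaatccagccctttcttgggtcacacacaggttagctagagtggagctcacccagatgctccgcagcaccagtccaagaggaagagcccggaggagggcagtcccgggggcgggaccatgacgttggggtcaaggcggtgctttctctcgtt
Adm, chr7:110627407-110627656, plus strand: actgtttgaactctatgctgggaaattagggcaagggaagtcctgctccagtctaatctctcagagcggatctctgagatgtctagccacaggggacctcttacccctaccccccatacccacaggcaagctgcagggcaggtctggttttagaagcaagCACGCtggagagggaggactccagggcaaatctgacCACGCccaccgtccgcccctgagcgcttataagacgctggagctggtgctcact

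Promoter windows were found for 7 of the 10 members, and each of the 7 held ACGTG or GCGTG in at least 1 window. For Vegfa this was not the window of its upstream start site. Over all genes with a window, 41.5% of 27025 symbols did. Both sequences contain CG, and the member windows with a match held 7 to 51 CG pairs, against a median of 6 over all windows. Kdm3a and Vegfa also had more than 1 window. The share was not compared at equal CG content. The Ankrd37 window held ACGTG 241 and 6 bases before the start site and a pair of overlapping GCGTG matches on opposite strands 155 and 152 bases before it. Egln1 held GCGTG at 126 and ACGTG at 68 bases, Kdm3a held GCGTG at 27 bases in the window shown and no match in its other 2 windows, Egln3 held ACGTG at 229 bases, and Adm held GCGTG on the opposite strand at 90 and 54 bases. Hif1a held 3 matches of ACGTG, of which 2 form the palindrome CACGTG, a sequence that E-box factors also bind. Vegfa held GCGTG and ACGTG only in the window of the more downstream of its 2 start sites (chr17:46025164-46025413, minus strand). The window of its upstream start site (chr17:46032378-46032627) held no match. Both Vegfa matches thus lie past the upstream start site, inside the stretch read from it. Whether the downstream site was used in these cells was not tested. Epas1, Ndrg1 and Bhlhe40 had no entry. A match of these letters is a description of the sequence and not a binding site. The members are known hypoxia genes, so the share is no independent result.

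Counts totalled 26641106 and 24312467 in KO-GS libraries, 8447016 and 21529669 in KO libraries, 24324112 and 28155438 in WT-GS libraries and 20495124 and 26907501 in WT libraries. Levels are counts over the scaled library size, in units of CPM, and are not corrected for transcript length, so they are compared between groups and not between genes. Carm1 stood at 53.9 and 58.6 CPM in KO-GS and at 48.1 and 70.8 CPM in KO, against 176 and 164 CPM in WT-GS and 207 and 204 CPM in WT. Replicate 1 of the KO group stood apart: the log2 ratio of the 2 libraries of that group had an SD of 0.69 over genes, against 0.17 in each other group. The members' values are therefore given for both KO libraries. Several results, though not all, are also given without a KO library where this changed the call or moved the value strongly. Such a fit takes its spread from the closer pairs of the other groups. Its calls therefore do not measure the spread between KO libraries. All 9 fibroblast markers checked had a mean above 1 CPM in KO-GS and KO, and 8 of 9 in WT-GS and WT. Their levels differed between the genotypes. Thy1 had a mean of 174 CPM in KO-GS and 129 CPM in KO, against 0.114 CPM in WT-GS and 0.130 CPM in WT. Pdgfra, Pdgfrb, Prrx1, Twist1 and Col3a1 means were also higher in the knockout in both media. Col1a1 and Vim means were lower in both, and the Col1a2 mean was higher only after starvation. Xist had 0 to 6 counts in the knockout libraries and 18657 to 23751 in the wild-type libraries. The genotypes therefore differed in more than Carm1, and what either difference contributes to the genotype comparisons cannot be told apart.

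**Figure D1:**
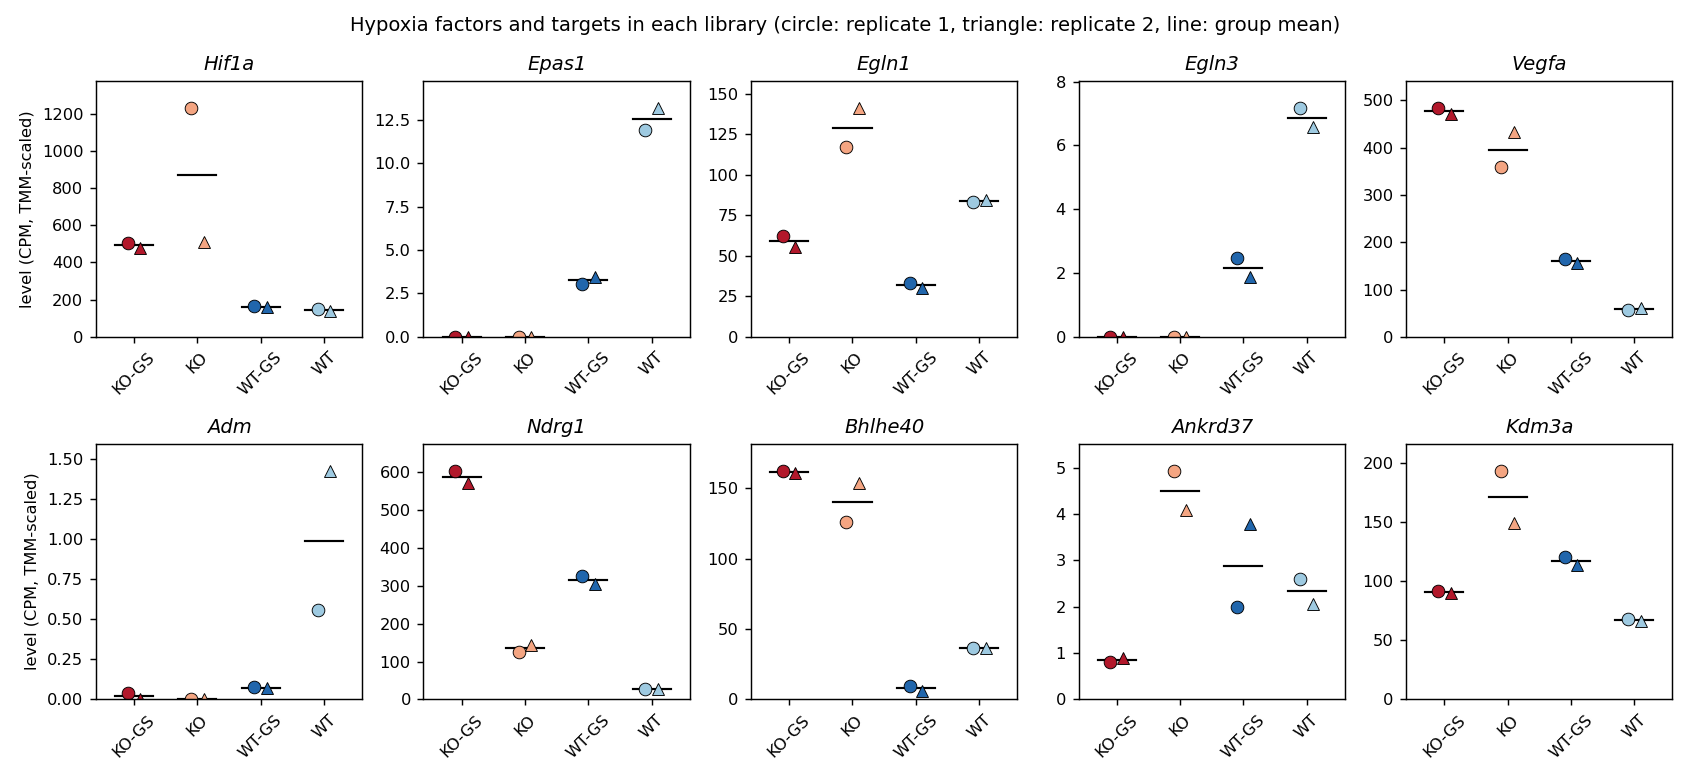
Level of each member in CPM (vertical axis from 0, a scale of its own per gene) in the 4 groups (horizontal axis). Circles are replicate 1, triangles replicate 2 and lines group means of 2 libraries. Epas1 and Egln3 had 0 counts in all 4 knockout libraries, Ndrg1 was highest in KO-GS, and the Hif1a replicates of KO lay at 1229.5 and 508 CPM.

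Hif1a transcripts were more abundant in knockout cells, and the change with starvation missed the threshold in both genotypes with all 8 libraries. Hif1a had 507 and 476 CPM in KO-GS and 1229.5 and 508 CPM in KO, against 164 and 159 CPM in WT-GS and 148 and 141 CPM in WT. Each knockout library lay above each wild-type library. The difference between genotypes was 6.00-fold in rich medium (log2 2.58 ± 0.37 SE, adjusted p = 0.0015) and 3.04-fold after starvation (log2 1.61 ± 0.36, adjusted p = 0.00765). Without replicate 1 of KO the difference in rich medium was log2 1.77. The difference after starvation missed the threshold without either WT-GS replicate (adjusted p = 0.0517 and 0.0586). The change with starvation was log2 -0.82 ± 0.35 in knockout cells (adjusted p = 0.15) and 0.16 ± 0.35 in wild-type cells (adjusted p = 0.775). The responses differed by log2 -0.98 ± 0.50 and missed the threshold (adjusted p = 0.237). That difference ranged from log2 -1.47 to -0.16 when each library was left out in turn. The value in knockout cells rested on 1 library: it was -0.03 without replicate 1 of KO and -1.31 without replicate 2. One estimate of the spread is shared over all 4 groups. Fitted on only the 4 wild-type libraries, the change was log2 0.16 with an adjusted p of 0.0272.

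Epas1, which encodes the other main alpha subunit and is known for its roles in vessel-lining cells and in erythropoietin control, had 0 counts in each of the 4 knockout libraries. In wild-type cells it had 77 and 100 counts in WT-GS (3.07 and 3.46 CPM), against 257 and 369 counts in WT (11.9 and 13.2 CPM). Epas1 was thus at least 125-fold lower in KO than in WT (adjusted p = 0.000145) and at least 52.7-fold lower in KO-GS than in WT-GS (adjusted p = 0.000193), each computed against 3 counts over the knockout group. It fell 3.84-fold with starvation of wild-type cells (log2 -1.94 ± 0.23, adjusted p = 0.00376), a call that missed the threshold without replicate 1 of WT-GS (adjusted p = 0.0509). No starvation response can be given in knockout cells.

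The oxygen-sensing enzymes moved the same way in wild-type cells, and 1 of them had no counts in knockout cells. Egln1, the main hydroxylase of HIF alpha subunits in most cells, had 62.4 and 55.5 CPM in KO-GS and 117 and 141 CPM in KO, against 33.1 and 30.3 CPM in WT-GS and 83.4 and 84.5 CPM in WT. It fell with starvation in both genotypes, by 2.19-fold in knockout cells (log2 -1.13 ± 0.14, adjusted p = 0.00399) and by 2.65-fold in wild-type cells (log2 -1.41 ± 0.15, adjusted p = 0.000828). The starvation responses differed by log2 0.27 ± 0.20 (adjusted p = 0.412), and by 0.43 without replicate 2 of KO. The call in knockout cells missed the threshold without either KO-GS replicate (adjusted p = 0.0515 and 0.067). Egln1 was 1.54-fold higher in KO than in WT (log2 0.62 ± 0.14, adjusted p = 0.0116) and 1.86-fold higher in KO-GS than in WT-GS (log2 0.90 ± 0.14, adjusted p = 0.00178). The call in rich medium was lost without either WT replicate (adjusted p = 0.0894 and 0.0842).

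Egln3, a hydroxylase known for strong induction by hypoxia, had 0 counts in each knockout library. Wild-type cells had 62 and 54 counts in WT-GS (2.47 and 1.87 CPM), against 154 and 184 counts in WT (7.16 and 6.56 CPM). Egln3 was at least 67.5-fold lower in KO than in WT (adjusted p = 0.000376) and at least 34.5-fold lower in KO-GS than in WT-GS (adjusted p = 0.000481). It fell 3.16-fold with starvation of wild-type cells (log2 -1.66 ± 0.28, adjusted p = 0.0108), a call lost without any wild-type library in turn (adjusted p = 0.0643 to 0.0978). Of the pairs of members, Epas1 and Egln3 had the most similar profiles over the 8 libraries, with a root mean square difference of 0.35 between centred log2(CPM + 1) values.

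A gene with no counts in any knockout library was uncommon: of 11897 genes with a WT mean of at least 1 CPM, 201 had none, 1.69%. Among the 10209 genes with a WT mean of at least 5 CPM, a level that Epas1 and Egln3 exceed, 78 had none (0.764%). Among the 9078 genes with a WT mean of at least 10 CPM, 38 had none (0.419%). The 3 other genes whose profiles lay closest to that of Epas1 were Mfap2, a microfibril component, Wnt5a, a secreted signal, and Lypd6, with root mean square differences of 0.10, 0.12 and 0.14. Wnt5a and Lypd6 also had 0 CPM in each knockout library. The 3 closest to Hif1a were Xlr, Tspan6 and Psd3, at 0.08, 0.10 and 0.18. Xlr had 2.21 and 2.41 CPM in KO-GS, against 0.0797 and 0 CPM in WT-GS. It had 0 CPM in each WT library, where Hif1a had 148 and 141 CPM. Adding 1 CPM before the log shrinks ratios at such low levels. The small distance of Xlr therefore does not show that its fold differences match those of Hif1a. The closeness to Hif1a rests in part on replicate 1 of KO, in which Tspan6 had 39.9 CPM, against 18.0 CPM in replicate 2.

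Of the secreted targets, Vegfa was abundant and Adm was near the limit of detection. Vegfa, which encodes the growth factor that drives vessel sprouting, had 483 and 471 CPM in KO-GS and 359 and 432 CPM in KO, against 164 and 157 CPM in WT-GS and 55.7 and 60.8 CPM in WT. The 4 groups did not overlap, and Vegfa was 6.79-fold higher in KO than in WT (log2 2.76 ± 0.14, adjusted p = 1.97e-05). After starvation the genotypes differed by 2.97-fold (log2 1.57 ± 0.14, adjusted p = 0.000104). Vegfa rose 2.75-fold with starvation of wild-type cells (log2 1.46 ± 0.14, adjusted p = 0.000601). In knockout cells the change was log2 0.27 ± 0.13 and missed the threshold (adjusted p = 0.205). It was 0.16 without replicate 1 of KO and 0.42 without replicate 2. The response was smaller in knockout cells by log2 1.19 ± 0.19 (adjusted p = 0.00932). That call missed the threshold without any library of the other 3 groups in turn (adjusted p = 0.0569 to 0.0786) and held without either KO library. The table held 6 Vegfa transcripts, and the lowest of them had 66.6% of the total of the highest.

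Adm encodes adrenomedullin, a peptide that widens vessels. It had 1 and 0 counts in KO-GS and 0 in each KO library, against 2 in each WT-GS library and 12 and 40 in the WT libraries, where its level was 0.558 and 1.43 CPM. Only the WT libraries held more than 2 counts, so Adm passed the filter on low counts through them. The calls of Adm as lower than in WT are not independent of that selection. Adm was at least 10.4-fold lower in KO than in WT (adjusted p = 0.0104), a call lost without replicate 2 of WT (adjusted p = 0.0534) and with limma-voom (adjusted p = 0.207). Of 11909 genes with a WT mean at or above that of Adm, 226 had at most 1 count over the 4 knockout libraries (1.9%). After starvation the ratio of KO-GS to WT-GS was 0.28 with an exact 95% interval of 0.00569 to 2.83 from 1 and 4 counts, so no difference was detectable at this depth. It fell with starvation of wild-type cells (log2 -3.67 ± 0.81, adjusted p = 0.0175), and this call too was lost without either WT-GS replicate or without replicate 2 of WT (adjusted p = 0.114 to 0.134).

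Ndrg1 gave the largest rise of the 10 members with starvation in both genotypes. This gene, a stress-induced cytoplasmic protein often used as a marker of hypoxia, had 603 and 572 CPM in KO-GS and 127 and 145 CPM in KO, against 325 and 306 CPM in WT-GS and 28.3 and 28.8 CPM in WT. It rose 4.33-fold in knockout cells (log2 2.11 ± 0.13, adjusted p = 0.000509) and 11.0-fold in wild-type cells (log2 3.46 ± 0.14, adjusted p = 5.61e-05). By p-value it ranked 5 among 13882 genes in the wild-type comparison and 15 in the knockout one. The rise was smaller in knockout cells by log2 1.35 ± 0.18 (adjusted p = 0.00457), which held without each library in turn. Ndrg1 was 4.74-fold higher in KO than in WT (log2 2.25 ± 0.13, adjusted p = 2.86e-05) and 1.86-fold higher in KO-GS than in WT-GS (log2 0.90 ± 0.12, adjusted p = 0.000848).

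Bhlhe40 fell in starved wild-type cells, and its response differed between the genotypes. Bhlhe40 encodes a repressor of the basic helix-loop-helix family that also acts on the circadian clock. It had 162 and 161 CPM in KO-GS and 126 and 154 CPM in KO, against 9.41 and 6.37 CPM in WT-GS and 36.8 and 36.2 CPM in WT. It fell 4.63-fold with starvation of wild-type cells (log2 -2.21 ± 0.21, adjusted p = 0.00058). The value in knockout cells was log2 0.20 ± 0.19 (adjusted p = 0.498), and 0.36 without replicate 2 of KO. The difference between the responses was log2 2.42 ± 0.28 (adjusted p = 0.00325) and passed without each library in turn. The genotypes differed by 3.84-fold in rich medium (log2 1.94 ± 0.20, adjusted p = 0.000318) and by 20.5-fold after starvation (log2 4.36 ± 0.22, adjusted p = 1.24e-05), with the knockout higher.

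Kdm3a, a histone H3 lysine demethylase, moved in opposite directions in the genotypes. It had 92.0 and 89.8 CPM in KO-GS and 193 and 149 CPM in KO, against 120 and 114 CPM in WT-GS and 67.7 and 66.0 CPM in WT. It fell 1.88-fold with starvation of knockout cells (log2 -0.91 ± 0.15, adjusted p = 0.00892) and rose 1.75-fold in wild-type cells (log2 0.81 ± 0.15, adjusted p = 0.00699). The difference between the responses was log2 -1.72 ± 0.21 (adjusted p = 0.00386) and passed without each library in turn. The rise in wild-type cells missed the threshold without any wild-type library in turn (adjusted p = 0.05 to 0.0696), and the fall in knockout cells without either KO-GS replicate (adjusted p = 0.0925 and 0.102). Kdm3a was 2.56-fold higher in KO than in WT (log2 1.35 ± 0.15, adjusted p = 0.00047). Between KO-GS and WT-GS it differed by log2 -0.36 ± 0.15 and missed the threshold (adjusted p = 0.0735). The value was log2 -0.36 without either KO replicate. It passed at log2 -0.36 with only the 4 starved libraries (adjusted p = 1.01e-06) and with limma-voom (adjusted p = 0.000109). With total count scaling it passed at log2 -0.49 (adjusted p = 0.0209).

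Ankrd37, an ankyrin repeat protein and a direct target of HIF-1, was expressed at low levels. It had 0.802 and 0.904 CPM in KO-GS and 4.92 and 4.08 CPM in KO, against 1.99 and 3.77 CPM in WT-GS and 2.60 and 2.07 CPM in WT. The libraries of WT-GS and WT overlapped, and those of KO-GS lay below all others. Ankrd37 fell 5.28-fold with starvation of knockout cells (log2 -2.38 ± 0.39, adjusted p = 0.00885) and was 3.38-fold lower in KO-GS than in WT-GS (log2 -1.76 ± 0.38, adjusted p = 0.0067). The call for starvation was lost without either KO-GS replicate (adjusted p = 0.0867 and 0.0807) and with limma-voom (adjusted p = 0.0774), and the call between genotypes without replicate 1 of KO-GS (adjusted p = 0.0523). The value for wild-type starvation was log2 0.32 ± 0.35 (adjusted p = 0.523), and -0.22 without replicate 2 of WT-GS. The responses differed by log2 -2.69 ± 0.52 (adjusted p = 0.0182), which missed the threshold without 5 of the 8 libraries in turn. The difference in rich medium, log2 0.93 ± 0.35, missed the threshold (adjusted p = 0.0683). This difference was log2 0.77 without replicate 1 of KO and 1.08 without replicate 2 of KO. Ankrd37 and Kdm3a had the second most similar profiles among the members, with a root mean square difference of 0.50. The 1 CPM added before the log shrinks ratios at the low levels of Ankrd37. The sizes of their changes differed: with starvation of knockout cells Ankrd37 fell 5.28-fold and Kdm3a 1.88-fold.

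**Figure D2:**
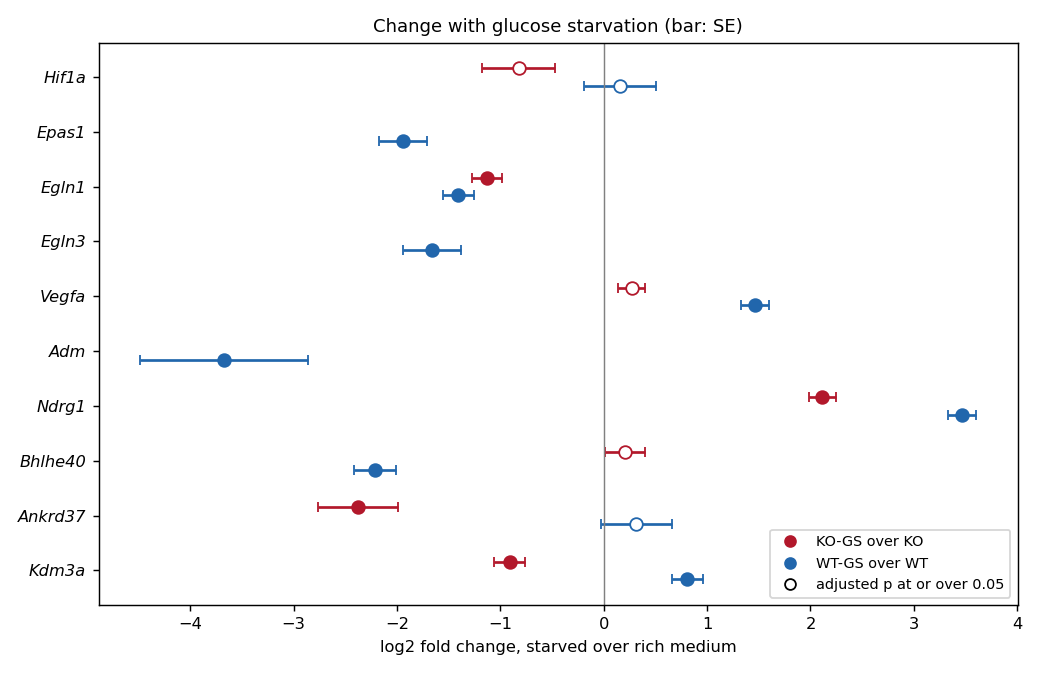
Log2 fold change with starvation (horizontal axis, starved over rich medium) of each member in knockout cells (red) and wild-type cells (blue). Bars are SE, and open circles did not pass the threshold of 0.05 on the adjusted p. Epas1, Egln3 and Adm have no value in knockout cells. Ndrg1 lies right of 0 and Egln1 left of 0 in both genotypes, while Kdm3a lies on opposite sides.

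Counted over the members, starvation of knockout cells raised 1 of 10 (Ndrg1) and lowered 3 (Egln1, Ankrd37 and Kdm3a), where 18.2% of all genes tested passed, 8.44% higher and 9.78% lower. The median over the 7 members with counts was log2 -0.82, against 0.00 over all genes. That median is the value of Hif1a, and it was -0.03 without replicate 1 of KO and -0.98 without replicate 2. Starvation of wild-type cells raised 3 (Ndrg1, Vegfa and Kdm3a) and lowered 5 (Epas1, Egln1, Egln3, Adm and Bhlhe40), where 32.9% of all genes passed, 14.8% higher and 18% lower. The median was log2 -0.62, against 0.00 over all genes. The difference between the responses passed in 5 of 10 members, where 13.3% of all genes did, 7.42% with a positive value and 5.91% with a negative one. It was negative, with the value of knockout cells below that of wild-type cells, in Ndrg1, Vegfa, Kdm3a and Ankrd37, and positive in Bhlhe40. The comparisons share libraries, so these counts are not independent of each other. In a fit of the 4 knockout libraries alone 0 of 7 members tested passed for starvation, and 0 genes passed in all.

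Between the genotypes in rich medium 9 of 10 members passed, 6 higher and 3 lower in the knockout, where 44% of all genes passed, 23.4% higher and 20.6% lower. After starvation 8 passed, 5 higher and 3 lower, where 54.6% of all genes passed, 27.8% higher and 26.8% lower. Both shares of members stand above the background, which is itself large. The median difference was log2 1.14 in rich medium and 0.27 after starvation, with Epas1, Egln3 and Adm entered at their bounds or ratio, against 0.00 and -0.02 over all genes. Hif1a, Vegfa, Ndrg1, Bhlhe40 and Egln1 were higher in the knockout in both media. The genotypes were not alike in markers of other cells. Summed endothelial markers had 242 to 245 CPM in KO-GS and 132 to 158 CPM in KO, against 3.79 to 5.02 CPM in WT-GS and 2.09 to 2.28 CPM in WT. Nearly all of that sum was Cdh5, the cadherin of vessel-lining cells, at 237 and 240 CPM in KO-GS and 126 and 154 CPM in KO, against 0 and 0.0346 CPM in WT-GS and 0 and 0.0713 CPM in WT. Pecam1 went the same way at a lower level. Its means were 4.77 CPM in KO-GS and 4.53 CPM in KO, against 0.258 CPM in WT-GS and 0.282 CPM in WT. Tie1 and Emcn were at 0 in all 4 groups, and Kdr, a VEGF receptor, had 1.78 to 4.50 CPM in wild-type libraries and 0 to 0.0861 CPM in knockout libraries. Summed macrophage, epithelial, muscle and erythroid markers stayed at or below 6.80 CPM in every library. Of the 5 macrophage markers 3 exceeded 1 CPM in the knockout groups and 1 in the wild-type groups. Lyz2, Csf1r and Ptprc means were higher in the knockout in both media, and Cd68 means in wild-type cells. Emr1 had at most 2 counts in a group. Of the 6 endothelial markers 2 exceeded 1 CPM in the knockout groups and 1 in the wild-type groups. Their part in the genotype differences was not tested, and fewer cells of a type and less RNA per cell cannot be told apart in such libraries.

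**Figure D3:**
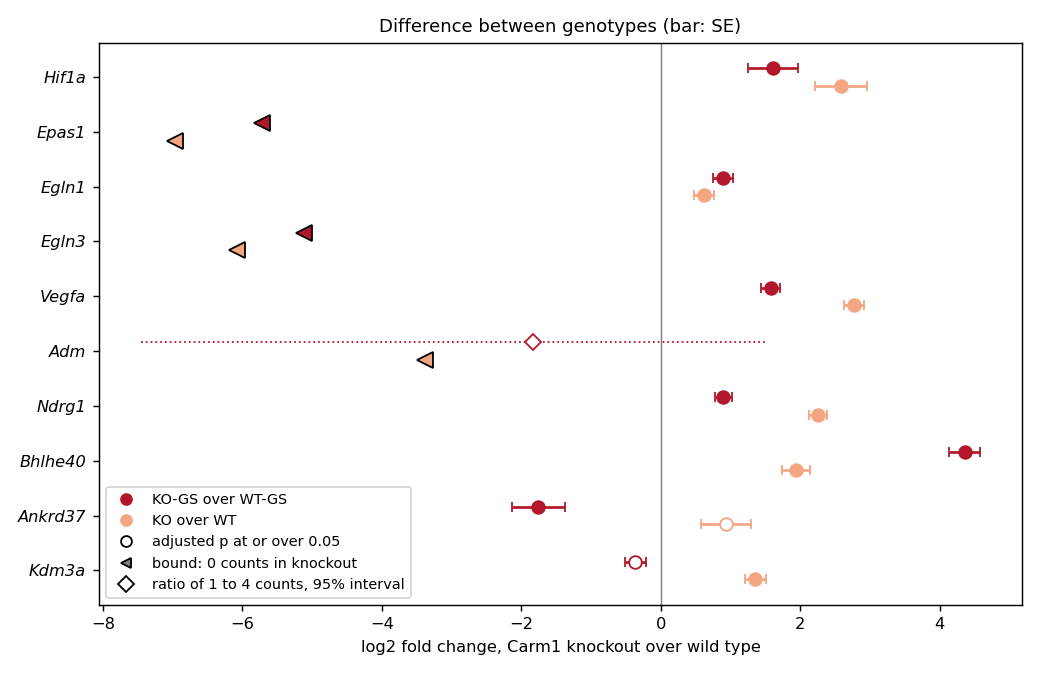
Log2 fold change of Carm1 knockout over wild type (horizontal axis) for each member, starved (dark red) and in rich medium (light red), with SE bars. Left-pointing triangles are bounds for genes with 0 counts in the knockout group, and the diamond is the count ratio of Adm with its 95% interval. Epas1 and Egln3 lie left of 0 in both media, and Hif1a, Vegfa, Ndrg1, Bhlhe40 and Egln1 right of it.

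Other genes of the pathway were counted in 3 lists written from textbook roles, of which 64 of 66 genes were tested (Epo and Cxcr4 were not). The first list held 14 partners and regulators of the alpha subunits. Starvation of knockout cells raised 2 of them and lowered 0, 14.3% called against 18.2% of all genes: Cited2, which competes with HIF for its coactivators (299.9 CPM in KO-GS against 118 and 86.0 CPM in KO, log2 1.56 ± 0.17, adjusted p = 0.00233), and the ubiquitin ligase Siah2 (log2 0.73 ± 0.15, adjusted p = 0.0177). Rbx1, a subunit of the ligase that degrades alpha subunits, had log2 -0.38 ± 0.11 (adjusted p = 0.0591). Starvation of wild-type cells raised 2 and lowered 3, 35.7% called against 32.9% of all genes, among them Arnt, the dimer partner of the alpha subunits (162 CPM in WT-GS against 101 CPM in WT, log2 0.68 ± 0.11, adjusted p = 0.00458), its relative Arnt2 (7.25 CPM in WT-GS against 18.3 CPM in WT, log2 -1.34 ± 0.21, adjusted p = 0.00368) and the coactivator Ep300 (log2 -0.51 ± 0.13, adjusted p = 0.0266).

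Between the genotypes, Arnt2 was 10.6-fold higher in KO-GS than in WT-GS (log2 3.41 ± 0.22, adjusted p = 3.08e-05) and 3.81-fold higher in KO than in WT (log2 1.93 ± 0.21, adjusted p = 0.000377). Cited2 was 3.91-fold higher in KO-GS than in WT-GS. Siah2 was higher in the knockout by 1.69-fold after starvation and 1.46-fold in rich medium, and Cul2, the scaffold of the same ligase as Rbx1, by 1.85-fold in rich medium. In all 9 of the 14 passed after starvation, 6 higher and 3 lower (64.3%, against 54.6% of all genes), and 5 in rich medium, 4 higher and 1 lower (35.7%, against 44%). The counts of this list lay near the background.

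Targets in glucose metabolism fell or did not pass with starvation in either genotype. Of 20 genes, 0 rose and 6 fell in knockout cells (median log2 -0.27 over the 19 with a value), and 0 rose and 10 fell in wild-type cells (median log2 -0.62). The share called was 30% in knockout cells, against 18.2% of all genes (9.78% lower), and 50% in wild-type cells, against 32.9% of all genes (18% lower). Pdk1, the kinase that keeps pyruvate out of mitochondria, had 18.7 CPM in KO-GS against 73.8 and 71.3 CPM in KO (log2 -1.95 ± 0.13, adjusted p = 0.000644). The lactate exporter Slc16a3 fell by log2 -2.53 ± 0.42 in knockout cells and -2.28 ± 0.40 in wild-type cells (adjusted p = 0.00908 and 0.00596). The value for Slc16a3 in knockout cells was log2 -1.69 without replicate 2 of KO. The glycolytic enzyme Pgam1 fell by log2 -0.79 ± 0.13 and -1.35 ± 0.14 (adjusted p = 0.00992 and 0.000749). Pfkfb3, which makes an activator of glycolysis, had 9.39 CPM in WT-GS against 26.1 CPM in WT (log2 -1.48 ± 0.19, adjusted p = 0.00173).

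Between genotypes this list went both ways, 7 higher and 6 lower after starvation and 5 higher and 5 lower in rich medium. These are 65% against 54.6% of all genes and 50% against 44%, close to the background. Hexokinase Hk2 was 3.99-fold higher in KO-GS than in WT-GS and 3.15-fold higher in KO than in WT (adjusted p = 5.2e-05 and 0.000164). The glucose transporter Slc2a1 was 2.91-fold higher in KO-GS than in WT-GS (adjusted p = 0.001). The list also holds the carbonic anhydrase Car12, which is not itself an enzyme of glucose metabolism. In the knockout Car12 was 7.14-fold lower after starvation and 23.9-fold lower in rich medium (adjusted p = 0.000286 and 0.000124). The aldolase Aldoc was lower in KO than in WT (log2 -4.84 ± 0.57, adjusted p = 0.000583). Aldoc had 0 and 6 counts in the KO libraries, and the value was log2 -4.38 without replicate 1 of KO. Without replicate 2 the KO group had no count.

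Of the 30 other targets tested, starvation of knockout cells raised 5 and lowered 13, with a median log2 of -0.65. That is 60% called, against 18.2% of all genes. Bnip3, a mitochondrial receptor for autophagy, had 12.1 and 11.2 CPM in KO-GS against 212 and 105 CPM in KO (log2 -3.77 ± 0.33, adjusted p = 0.00132), and log2 -3.16 without replicate 1 of KO. Tfrc, the transferrin receptor, fell by log2 -1.60 ± 0.14 (adjusted p = 0.00129), and the heme oxygenase Hmox1 rose by 2.90 ± 0.14 (adjusted p = 0.000251). In wild-type cells 9 rose and 12 fell, with a median of -0.21 and 70% called, against 32.9% of all genes. Ero1l, an oxidase of the endoplasmic reticulum, rose by log2 1.77 ± 0.15 (adjusted p = 0.000474) and Hmox1 by 1.47 ± 0.14 (adjusted p = 0.000561), while the growth factor gene Tgfb3 fell by log2 -2.45 ± 0.20 (adjusted p = 0.00043).

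Between genotypes 15 of the 30 were higher and 10 lower after starvation, and 13 higher and 6 lower in rich medium. The shares called were 83.3% against 54.6% of all genes and 63.3% against 44%. The collagen-crosslinking enzyme Lox was 7.47-fold higher in KO-GS than in WT-GS and 5.48-fold higher in KO than in WT (adjusted p = 7.68e-06 and 2.07e-05). The lipoprotein receptor Vldlr was 6.16-fold higher in KO-GS than in WT-GS and 14.9-fold higher in KO than in WT, and the adenylate kinase Ak4 was 9.74-fold higher in KO than in WT. Angptl4, a secreted lipase inhibitor, had 62.8 CPM in KO-GS and 0 counts in WT-GS, at least 1128-fold higher.

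**Figure D4:**
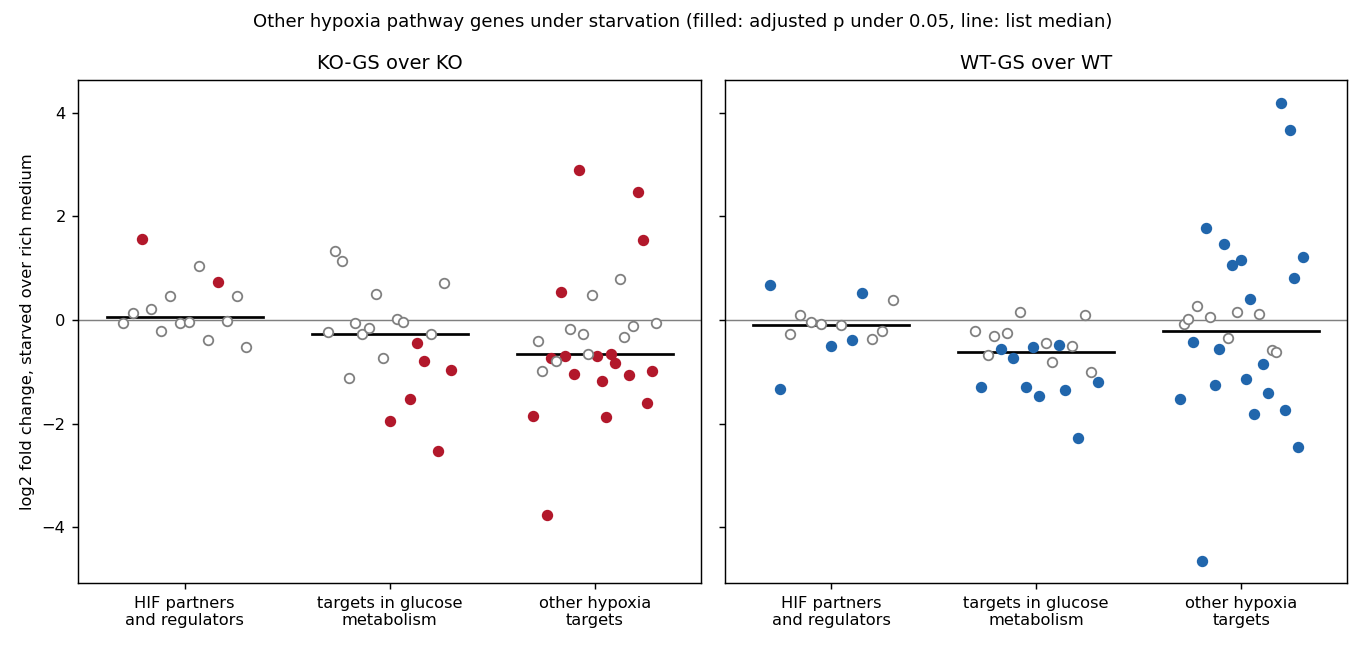
Log2 fold change with starvation (vertical axis) of the other pathway genes in 3 lists, in knockout cells (left, 61 genes drawn) and wild-type cells (right, 62 genes drawn). Genes with at most 3 counts in a group are not drawn (3 and 2), filled points passed the threshold and lines are list medians with bounds included. The medians of the glucose metabolism list lie below 0 on both sides (log2 -0.27 and -0.62).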

How the data were processed

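The 8 RNA libraries were used, and 4 libraries of chromatin immunoprecipitation and input were left aside. The authors deposited raw counts for each RefSeq transcript, made on the mouse mm9 build with TopHat2 2.0.9 and bedtools, per the submitters' processing notes. How strand and reads with several matches were treated was not given, so overlapping genes could share reads. Columns were matched to samples by name and titles.

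For each symbol the transcript with the most counts was kept. The low-count filter filterByExpr left 13882 genes (edgeR 4.0.16, R 4.3.3), and TMM factors scaled the libraries. Quasi-likelihood tests on a fit of all 8 libraries, with a mean per group, gave 5 contrasts, with Benjamini-Hochberg adjustment over all genes and a threshold of 0.05. The SE is the log2 fold change divided by the square root of F. A gene at 0 in a group is compared with 3 counts over that group. Intervals and floors cover counting error only: 3 counts in a library were 0.104 to 0.369 CPM. The fit was also run on simulated counts, and no result above rests on that run.

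The members, lists and tests were chosen with earlier results of these data known. Genes named in the text are the members, in each list and contrast the 3 genes of smallest p, the nearest profiles and markers. Edn1, which had 3 counts over the KO group, falls under this rule for the difference in response, and its fitted value is no bound and is not given. A further gene under this rule is not reported here. Other settings were relative log expression and total count scaling, no filter or a stricter one (a minimum of 5 CPM in 2 or more libraries), a replicate block, limma-voom with quality weights (limma 3.58.1), DESeq2 1.42.0, only the libraries compared, the transcript with the lowest total, and leaving out each library.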

Additional observations from a re-analysis of the deposited data

Results flagged for a closer look

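The starvation response differed between knockout and wild-type cells by a test of the difference itself in 5 members. The value of knockout minus wild-type cells was log2 -1.35 for Ndrg1, -1.19 for Vegfa, -1.72 for Kdm3a, 2.42 for Bhlhe40 and -2.69 for Ankrd37. In Kdm3a every library of the KO-GS group lay below the KO libraries and every library of WT-GS above the WT libraries.

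The same test passed for 18 of the 64 genes tested in the other lists, 28.1% against 13.3% of all genes. Among them were Bnip3 (log2 -3.78), Vldlr (-1.28), Ero1l (-1.23), Hmox1 (1.43) and Tgfb3 (1.47). Under the rule of the 3 genes of smallest p in each list, 6 others are given. The differences were log2 1.83 for Cited2, 1.48 for Arnt2, -0.73 for Arnt, -1.44 for Pdk1, 1.49 for Pfkfb3 and -2.41 for Tfrc. Tfrc had 136 CPM in KO-GS and 413 CPM in KO, against 510 CPM in WT-GS and 291 CPM in WT. Car12 had a difference of log2 1.81 that missed the threshold (adjusted p = 0.0725) and was 1.99 without replicate 1 of KO.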

How the results depend on the processing

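Of 732 repeats of the 44 member results under the other settings, 673 kept their direction and their side of the threshold, 42 kept their direction and lost the call, 16 kept it and gained the call, and 1 changed sign (Ankrd37 in wild-type starvation, log2 -0.22 without replicate 2 of WT-GS, and up to 0.70 without other libraries). Of these losses, 7 came with all 8 libraries or the 4 compared. With only the libraries compared, 0 members and 0 other pathway genes passed for knockout starvation (4 and 26 in the reported fit), with 0 of all genes, and 22 pathway genes passed in rich medium (34), as with limma-voom (22). That fit called 9332 genes for wild-type starvation (4561), limma-voom 9398, 1174 for knockout starvation (2528) and 3494 in rich medium (6114), and DESeq2 2880 for the difference (1850). The cause was not tested. Leaving out each library in turn gave 1 to 7 members and 8 to 48 pathway genes for knockout starvation, 4 to 9 and 16 to 53 for wild-type starvation, 7 to 10 and 23 to 58 in rich medium, 7 to 9 and 32 to 59 after starvation, and 3 to 7 and 8 to 47 for the difference. Over all genes these fits gave 265 to 8409, 1580 to 9561, 3369 to 10336, 5127 to 11435 and 452 to 8020. Fits without a KO library leave the spread to the closer pairs. Total count scaling shifted all genes by log2 -0.12 in the comparison of starved genotypes, with which Kdm3a passed (log2 -0.49, adjusted p = 0.0209). No member changed sign with it. Deviations of same-numbered replicates correlated between groups by -0.03 to 0.18, so the numbers were not taken as pairs. With the replicate block 2111, 4123, 5802, 7361 and 1490 genes passed in the same order, and no member result changed its call. Epas1, Egln3 and Adm gave no value for knockout starvation or the difference. Depth limits the members with few or no counts in a group, Adm, Ankrd37, Epas1 and Egln3 among them.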
